A study of Mus musculus with 2 samples.

Results

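Platelets meet reactive oxygen during activation and storage, and they carry a set of enzymes that remove it. The genes described here are Cat, Oxr1, Sod1, Sod2, Gpx1, Gpx4, Prdx2, Prdx6, Txnrd1 and Gsr, chosen by symbol with earlier results of these data known. Their members are all probe sets on the array whose annotation gives 1 of these symbols and no other. This rule found 24 probe sets for 9 of the 10 genes, out of 34945 probe sets and 18193 genes with a single symbol. Prdx6 was not analysed here. Of the 9 genes, catalase read higher in Smad4 -/- platelets on both of its probe sets, Oxr1 read lower on both of its measured probe sets, and Prdx2 read lower on both of its probe sets, by more than 2-fold on 1 and by little on the other. In the other 6 genes, no probe set reached 2-fold once weak signals were raised to a common floor. For the weak Sod1 and Sod2 probe sets with 1 array below that floor, the full size of the difference is not known.

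RNA came from washed platelets of C57BL/6 mice and was hybridised to Affymetrix mouse arrays after labelling from the 3' end. The control group, Smad4 f/f, carries Smad4 alleles flanked by loxP sites and is also described as wildtype in the labels. The other group, Smad4 -/-, carries the same floxed alleles and a Cre recombinase under the PF4 promoter, which acts in megakaryocytes, the cells that shed platelets. Smad4 is the common partner of the SMAD proteins of TGF-beta and BMP signalling, and the comparison asks which platelet transcripts differ when it is lost. Each genotype has 6 mice and 1 array. Whether the 6 were pooled, whether the control mice carry the Cre, and the age and the C57BL/6 substrain of the mice are not given in the sources used here. There are no replicates, so no test was made, no value has an error between animals, and each difference is one between 2 arrays. Fewer cells of a type and less RNA per cell cannot be told apart in such bulk RNA.

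Cells make superoxide as a by-product of respiration and on purpose through NADPH oxidases. Superoxide dismutases turn it into hydrogen peroxide, which catalase splits into water and oxygen and which glutathione peroxidases and peroxiredoxins reduce with the help of thiols. Glutathione reductase and thioredoxin reductase return those thiols to their reduced form at the expense of NADPH. Oxr1 belongs to a family that shares the TLDc domain and is named for the resistance to oxidation it gives to cells. Platelets have no nucleus, so their transcripts are those packed by the megakaryocyte.

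Promoter sequence was available for 7 of the genes, in RefSeq windows of the GRCm38.p6 assembly that reach 250 bases before each annotated start, with 12 windows in all because Gpx4 and Txnrd1 have several starts. The catalase stretch is shown because catalase is the only member gene at least 2-fold higher in Smad4 -/- by its strongest probe set. It lies on the minus strand at chr2:103485154-103485403, and capitals mark GTCT, the short core that SMAD proteins contact, searched on both strands as GTCT or AGAC.

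Cat: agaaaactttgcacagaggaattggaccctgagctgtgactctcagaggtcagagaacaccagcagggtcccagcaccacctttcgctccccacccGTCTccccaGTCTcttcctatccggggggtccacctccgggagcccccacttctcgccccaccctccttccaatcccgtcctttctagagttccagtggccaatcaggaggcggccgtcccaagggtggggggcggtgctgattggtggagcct

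The catalase stretch holds 2 such cores. A core of this length is common. It occurs in 82.9% of all 32851 windows, with a median of 2 per window, and in 9 of the 12 windows of these genes. The core of the antioxidant response element, through which NRF2 acts on many genes of this kind, was searched as TGACNNNGC on both strands. It occurs in 10.2% of all windows and in 2 of the 12. Both are shown with 10 bases on each side and the match in capitals, the Sod1 site at chr16:90220696-90220724 on the plus strand and the Txnrd1 site at chr10:82859104-82859132 on the plus strand. The latter precedes an internal start of Txnrd1.

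Sod1: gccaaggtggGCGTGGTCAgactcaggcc

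Txnrd1: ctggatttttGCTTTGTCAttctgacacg

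The Sod1 match begins 56 bases before the start and the Txnrd1 match 92 bases before it. A match describes letters in these windows and no binding.

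Signals are given as deposited, in arbitrary units after the antilog, and compared between the genotypes only within a probe set. The floor was a signal of 145, a log2 value of 7.18, and a probe set that reached it on at least 1 array was taken as measured. Of the 24 probe sets, 20 were measured, 16 of them on both arrays. Log2 ratios are Smad4 -/- over Smad4 f/f with values below the floor raised to it, so where 1 array lay below it the ratio is only the least size the difference can have. At least 2-fold, a log2 ratio of 1, served as a rule of size. It was met by 1 of the 20 measured probe sets in the higher direction, where the share over all 18099 measured probe sets was 3.35%, and by 2 of the 20 in the lower direction, where it was 3.5%. With each array centred on its median these shares over all probe sets were 4.27% and 2.75%. By genes, with each gene at its strongest probe set, 1 of 9 was higher (3.34% of all 11380 measured genes) and 2 of 9 were lower (3.59%). Since the genes were proposed with such values known, these counts describe them and support nothing. The median log2 ratio of the 20 probe sets was -0.11, against -0.02 over all measured probe sets.

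**Figure D1:**
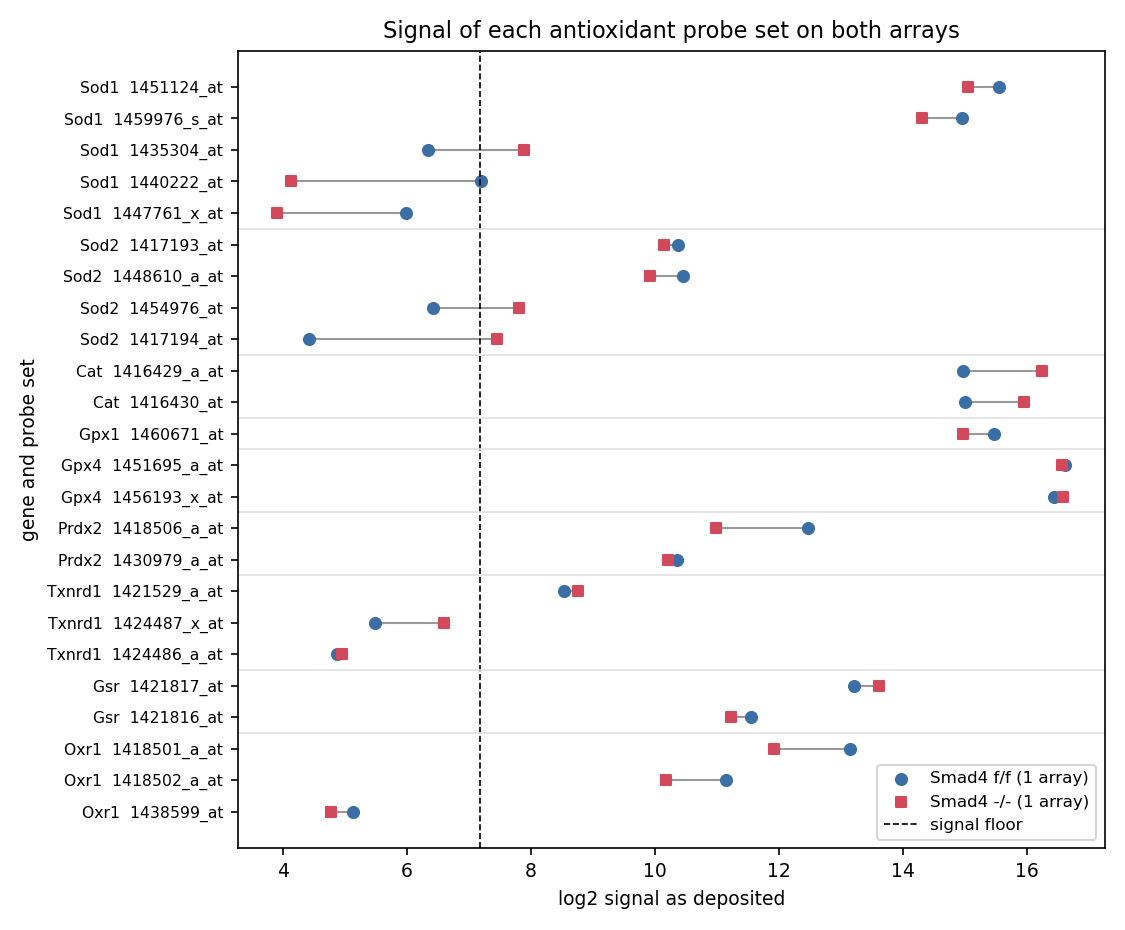
Log2 signal of all 24 antioxidant probe sets (rows, named by gene and probe set) on the Smad4 f/f array (blue circles) and the Smad4 -/- array (red squares), with the signal floor as a dashed line. The squares lie right of the circles for both catalase probe sets and left of them for both Oxr1 probe sets above the floor, while the widest gaps of Sod1 and Sod2 involve an array below the floor.

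Catalase, the peroxisomal and cytosolic haem enzyme that is also abundant in red cells, had a strong signal on both arrays. Probe set 1416429_a_at read 32029 on the Smad4 f/f array and 77331 on the Smad4 -/- array, which is 2.41-fold higher and a log2 ratio of 1.27. Probe set 1416430_at read 32638 on the Smad4 f/f array and 62884 on the Smad4 -/- array, a log2 ratio of 0.95 and just short of 2-fold, though past it with each array centred on its median. The Smad4 -/- array was thus the higher one on both, and the 2 ratios lay 0.33 apart on the log2 scale. As a yardstick without any spread between animals, ratios from different measured probe sets of 1 gene varied with a pooled SD of 0.48 over 4252 genes, and 0.25 over the 877 genes with several probe sets at a log2 signal of 10 or more on both arrays, a limit chosen after the values were seen. Catalase was proposed with its values known, so this yardstick only describes how far probe sets of 1 gene scatter about their mean. A gap between 2 probe sets is on another scale than such an SD, so the gap of 0.33 was not ranked against it.

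Oxr1 stood on the other side. Probe set 1418501_a_at read 9048 on the Smad4 f/f array and 3869 on the Smad4 -/- array, 2.34-fold lower, a log2 ratio of -1.23. Probe set 1418502_a_at read 2251 on the Smad4 f/f array and 1159 on the Smad4 -/- array. Its log2 ratio was -0.96, again just short of 2-fold, and further from it with each array centred on its median. The 2 ratios lay 0.27 apart. The third Oxr1 probe set, 1438599_at, was below the floor on both arrays, at 35.0 and 27.3. Oxr1 is known to have several transcript forms, and which of them each probe set reads was not analysed here. Of the other TLDc genes listed, Ncoa7 was the only one measured. It read 378 on the Smad4 f/f array and 307 on the Smad4 -/- array, a log2 ratio of -0.30.

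Prdx2 encodes a thiol peroxidase of the cytosol that is abundant in red cells, and its 2 probe sets gave unlike sizes. Probe set 1418506_a_at read 5640 on the Smad4 f/f array and 2032 on the Smad4 -/- array, 2.78-fold lower, a log2 ratio of -1.47. Probe set 1430979_a_at read 1310 on the Smad4 f/f array and 1177 on the Smad4 -/- array, a log2 ratio of -0.15. The Smad4 -/- array was the lower one on both, but the ratios lay 1.32 apart, a wider gap than the 0.33 of Cat and the 0.27 of Oxr1. Their mean log2 ratio was -0.81, which does not reach 2-fold.

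Sod1, the copper and zinc superoxide dismutase of the cytosol, read lower in Smad4 -/- on its strong probe sets. Probe set 1451124_at read 47936 on the Smad4 f/f array and 33721 on the Smad4 -/- array, a log2 ratio of -0.51. Probe set 1459976_s_at, whose suffix marks probes shared with other transcripts, read 31623 and 20325, a log2 ratio of -0.64. The weak probe sets of Sod1 did not follow one direction. Probe set 1435304_at read 80.7 in Smad4 f/f, below the floor, and 236 in Smad4 -/-, a log2 ratio of at least 0.70. Probe set 1440222_at read 147 in Smad4 f/f, at the floor, and 17.5 in Smad4 -/-, and 1447761_x_at was below the floor on both arrays.

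Sod2, the manganese superoxide dismutase of mitochondria, gave a like picture at a lower signal. Probe set 1448610_a_at read 1394 on the Smad4 f/f array and 968 on the Smad4 -/- array, a log2 ratio of -0.53. Probe set 1417193_at read 1326 on the Smad4 f/f array and 1136 on the Smad4 -/- array, a log2 ratio of -0.22. These 2 were lower in Smad4 -/-, while the weak ones were higher. Probe set 1454976_at read 85.8 on the Smad4 f/f array and 225 on the Smad4 -/- array, a log2 ratio of at least 0.63, and 1417194_at read 21.4 and 174, at least 0.26. The mean over the 4 measured probe sets was at least 0.04, since the weak ones give only bounds. The sign for Sod2 thus depends on which probe sets are taken. Ccs, the chaperone that loads copper into Sod1, read 316 on the Smad4 f/f array and 325 on the Smad4 -/- array.

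Among the selenium-containing peroxidases, Gpx1, which reduces soluble peroxides in the cytosol, has 1 probe set. It read 44986 on the Smad4 f/f array and 32075 on the Smad4 -/- array, a log2 ratio of -0.49. Gpx4, which reduces lipid peroxides within membranes, had the smallest difference of the 9 genes by strongest probe set. Its probe set 1451695_a_at read 100374 on the Smad4 f/f array and 96455 on the Smad4 -/- array, a log2 ratio of -0.06. Its other probe set, 1456193_x_at, read 88030 and 97576, a log2 ratio of 0.15. Signs differed between the 2.

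The reductases that recycle thiols were close on both arrays. Gsr, glutathione reductase, read 9504 on the Smad4 f/f array and 12448 on the Smad4 -/- array on probe set 1421817_at, a log2 ratio of 0.39. Its probe set 1421816_at went the other way, from 2986 to 2383, a log2 ratio of -0.33, and the mean of the 2 was 0.03. Txnrd1, the cytosolic thioredoxin reductase and the third selenoprotein here, was measured on 1 of its 3 probe sets. That one read 370 on the Smad4 f/f array and 432 on the Smad4 -/- array, a log2 ratio of 0.22.

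Of the 7 genes with several measured probe sets, 3 (Cat, Oxr1 and Prdx2) had all of them on the same side. The ratio depends on signal, since weak probe sets scatter more, so the members were also set beside probe sets of like strength. A log2 signal of 10 or more on both arrays was reached by 3838 probe sets, of which 2.19% were at least 2-fold higher and 0.938% at least 2-fold lower. The members among them are 14 probe sets of 8 genes, with 1 higher and 2 lower, 10 below 0 and a median log2 ratio of -0.27 against -0.001 over the whole class. In this class the catalase ratios were matched or passed by 39 and 98 probe sets, each itself included. On the lower side, this number was 17 and 47 for the Oxr1 ratios and 9 and 1243 for the Prdx2 ratios. The genes and the limit were chosen with values known, so these ranks describe them and support nothing.

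**Figure D2:**
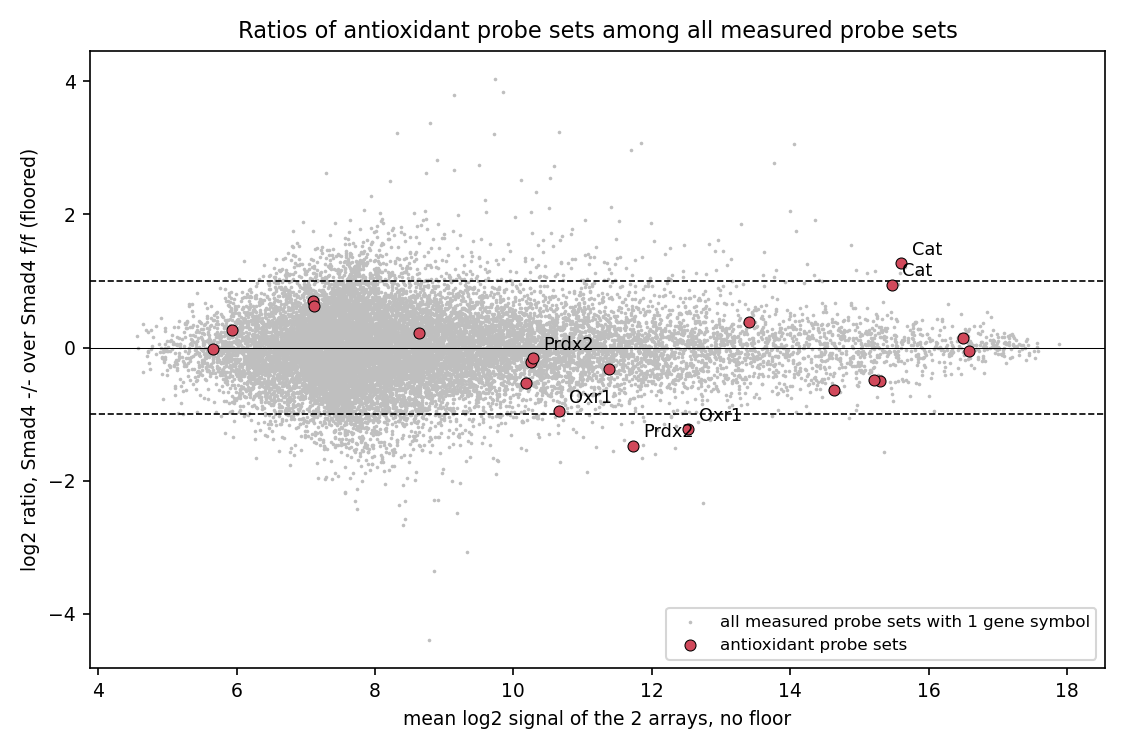
Log2 ratio of Smad4 -/- over Smad4 f/f (vertical axis, floored values) against the mean log2 signal of the 2 arrays (horizontal axis) for all 18099 measured probe sets in grey and the 20 measured antioxidant probe sets in red, with dashed lines at 2-fold. Catalase stands at the upper edge at high signal, 1 Prdx2 and 1 Oxr1 probe set lie below the lower line, and the other members lie between the lines.

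The wider redox system was read from 13 companion lists with 102 genes, of which 75 were measured. Among these 75, past 2-fold were 2 on the higher and 3 on the lower side in Smad4 -/-, 6.67% in all, beside 6.93% of all measured genes. The share of these companion genes past 2-fold is thus near that of all genes. Their median log2 ratio was 0.07, against -0.02 over all measured genes.

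Genes that make and use glutathione included both that were higher. Gss, glutathione synthetase, read 913 on the Smad4 f/f array and 1909 on the Smad4 -/- array, 2.09-fold higher, with 0.78 as the log2 ratio of its other probe set. Gclc, the catalytic subunit of the enzyme that starts glutathione synthesis, had a log2 ratio of -0.58 and one of 0.16 on its weaker probe set, and Ggct one of at least 0.34. Gstt1, a glutathione transferase of the theta class, read 3317 on the Smad4 f/f array and 9666 on the Smad4 -/- array on its single probe set, 2.91-fold higher. In the same list of 8 measured transferases, Mgst2 had a log2 ratio of 0.81 and Gsto1 one of -0.57. The medians of these 2 lists, 0.07 and 0.11, turned negative when the probe sets of each gene were averaged, and that of the synthesis list also with the floor at the 50th or 75th percentile.

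The 3 genes on the lower side came from different lists. Gpx2, a glutathione peroxidase best known from epithelia, read 360 on the Smad4 f/f array and 54.5, below the floor, on the Smad4 -/- array, at least 2.48-fold lower. Gpx5 and Gpx3 were below the floor in Smad4 f/f and had log2 ratios of at least 0.71 and 0.20. Nnt, the mitochondrial transhydrogenase that makes NADPH, read 1057 on the Smad4 f/f array and 517 on the Smad4 -/- array, 2.04-fold lower. Its other log2 ratios were -0.79, on a stronger probe set ending in _x_at, and -0.90 as a bound. The C57BL/6J substrain is known to carry a deletion within Nnt. Among other genes of NADPH supply, probe sets went both ways. Tkt had a log2 ratio of 0.74 but -0.40 on a stronger probe set ending in _x_at, and Idh1 had one of 0.48 but a bound of -0.36 on its other probe set, with a mean of 0.06. Nqo1, a quinone reductase and a classic NRF2 target, read 666 on the Smad4 f/f array and 330 on the Smad4 -/- array, 2.02-fold lower. It was the only one past 2-fold of 11 measured genes of NRF2 regulation and targets, where Mafk, a small MAF partner of NRF2, had a log2 ratio of 0.70, the related factor Nfe2l1 one of -0.67, and the list a median of -0.11. With arrays centred on their medians, 1 companion gene in place of 3 was at least 2-fold lower.

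By strongest probe set, none of the measured genes of the other companion lists passed 2-fold. In the thioredoxin system, 5 of 7 genes were below 0 with a median of -0.20. Txn1, the cytosolic thioredoxin, read 13447 on the Smad4 f/f array and 7407 on the Smad4 -/- array, a log2 ratio of -0.86, and Txndc17 had one of -0.53. Srxn1, which repairs overoxidised peroxiredoxins, had a log2 ratio of -0.07 on its strongest probe set, and its other probe sets lay between -0.99 and 0.38. Prdx4, the peroxiredoxin of the endoplasmic reticulum, had one of -0.42 on its strongest probe set. Of its weaker probe sets, a pair passed 2-fold on the lower side, at -1.23 and -1.02, and the remaining one, below the floor in Smad4 f/f, gave at least 0.30. Among NADPH oxidase subunits Rac1 had a log2 ratio of -0.10, with -0.67 and -0.27 on its weaker probe sets, and Cyba, the membrane subunit shared by several of these oxidases, read 6207 on the Smad4 f/f array and 10680 on the Smad4 -/- array, a log2 ratio of 0.78.

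All 4 measured methionine sulfoxide reductases, which repair oxidised methionine, were above 0 with a median of 0.62. Of them, Msrb3 was below the floor in Smad4 f/f, with a log2 ratio of at least 0.28. Msrb1 read 1004 on the Smad4 f/f array and 1782 on the Smad4 -/- array, a log2 ratio of 0.83, and Msra had one of 0.41. Genes of the peroxisome, the organelle that holds catalase, had a median of 0.39 over 10 genes with 7 above 0. Pex14 and Pex13, both of the import pore, had log2 ratios of 0.54 and 0.64. Pex5, the receptor that carries catalase into peroxisomes and named after its value was seen, read 164 on the Smad4 f/f array and 325 on the Smad4 -/- array, a log2 ratio of 0.99, but its other measured probe set had a log2 ratio of -0.84. Pex7, the receptor of another import signal and also named after its value was seen, was lower, at -0.82. Genes that insert selenocysteine, the residue at the active site of Gpx1, Gpx4 and Txnrd1, had a median of 0.34 over 6 genes, with Sephs2 at 0.36 and Trnau1ap at -0.09 on their strongest probe sets. Averaged over probe sets, Sephs2 was at 0.87, with 1 weak probe set at 1.87, and Trnau1ap at 0.33. The medians of the thioredoxin, methionine sulfoxide reductase, peroxisome and selenocysteine lists kept their sign under 7 alternatives of scaling, floor and gene value, but not their size. The peroxisome median went down to 0.14 when probe sets were averaged, the selenocysteine median to 0.09 with the floor raised to the 75th percentile, and the thioredoxin median ranged from -0.29 to -0.11.

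**Figure D3:**
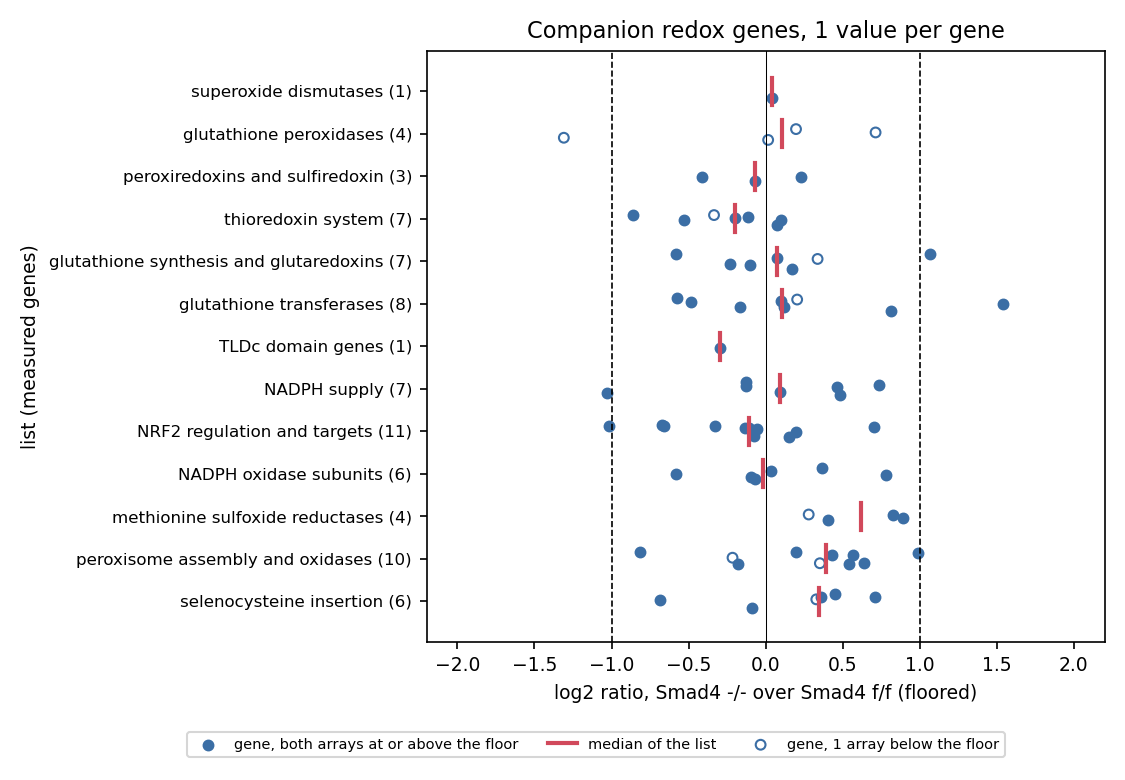
Log2 ratio of Smad4 -/- over Smad4 f/f (horizontal axis, floored values) for each measured gene of 13 companion redox lists (rows, with the number of measured genes), with open circles where 1 array was below the floor, red bars at list medians and dashed lines at 2-fold. Of the 75 genes, 2 lie beyond the line on the higher side and 3 beyond it on the lower side.

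Several measures of the arrays stand beside these values. Between 38.5% and 40.0% of all non-control probe sets reached the floor. Platelet genes were strong on both arrays, with 10 measured markers, none of them past 2-fold and a median log2 ratio of 0.14, while Smad4 itself read 949 on the Smad4 f/f array and 894 on the Smad4 -/- array. Where the Smad4 probe sets lie relative to the deleted part was not analysed here. Of 14 measured red cell markers, 7 passed 2-fold on the higher side in Smad4 -/- and 0 on the lower. The shares of all measured genes were 3.34% and 3.59%. The median of the 14 was 0.96, and 0.37 over 13 with the floor at the 75th percentile. Of the 14, 11 were above 0, while Tfrc, Rhd and Klf1 were at -0.61, -0.49 and -0.31. The summed signal of the 14 was 13745 on the Smad4 f/f array and 33107 on the Smad4 -/- array, with the globin genes not in this sum. Fech made up 4551 and 13904 of it, and Bpgm 2881 and 7635. The single-symbol probe set of Hba-a1 and those of Car1 and Rhag were below the floor on both arrays. Catalase had log2 ratios of 1.27 and 0.95, Prdx2 of -1.47 and -0.15, and Gpx1 of -0.49. Red cells also hold these enzymes, and the part of red cells in these values was not tested. Neutrophil, monocyte, T and NK cell and B cell lists had 0 of 6, 1 of 6, 1 of 8 and 2 of 8 measured markers at least 2-fold higher, 0 lower, and medians of 0.35, 0.04, 0.40 and 0.39. The monocyte marker, Csf1r, was at 1.64, but at -0.48 and, as a bound, -0.32 on its weaker probe sets. Of the B cell markers, Jchain was below the floor in Smad4 f/f. In the same order, the summed signals of these lists were 5967, 140615, 7780 and 5632 in Smad4 f/f and 7757, 132498, 16627 and 6805 in Smad4 -/-. Of the T and NK sum, Cd28 alone made up 4685 and 12825, while Cd3d read 356 and 181. Lyz2 made up 139723 and 131259 of the monocyte sum. Some defining markers of these cells (Elane, Mpo, Cd14, Cd3e, Cd3g and Pax5) were below the floor on both arrays, and others were above it on both, among them S100a8 (3178 and 3733), Ms4a1 (1867 and 1848) and Cd79b (970 and 1120). For the Gapdh control, where a high ratio of 3' to 5' signal can mark degraded RNA, this ratio was 1.86 on the Smad4 f/f array and 2.61 on the Smad4 -/- array, and for beta-actin it was 1.16 and 1.27. The part of other cells and of RNA quality in the antioxidant values was not tested.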

How the data were processed

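The authors deposited 1 log2 signal for each probe set on each array. Per the submitters' processing notes they were made with MAS5, with no version or setting given. With 2% trimmed from each end, the linear signals average 500.01 on each array. Of 45101 probe sets, 64 controls, 932 with several gene symbols and 9160 with none were left out of gene values, by a platform annotation that can be out of date. Values were used as scaled by the authors. For the floor, the 60th percentile was taken on each array and the higher value kept. Each gene was represented by its strongest measured probe set, with _x_at probe sets used only in the absence of others. No test could be run on single arrays, whose number limits how precise any difference is.

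All probe sets of the members were named. Of each companion list, up to 3 genes with the largest ratio were named where any passed 2-fold, and otherwise the 2 with the strongest signal. Pex5 and Pex7 fall outside this rule. With 2 arrays, no genes could be named for a like pattern across samples. The members, lists and rules were chosen with earlier results of these data known. Promoter windows came from RefSeq (GRCm38.p6), and the SMAD core was added after the values were seen. Python 3.11.15, pandas 2.3.3 and statsmodels 0.14.6 were used, and the steps were tested on simulated data. Alternatives covered scaling, floor, size rule and choice of probe sets.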

Additional observations from a re-analysis of the deposited data

How the results depend on the processing

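The log2 ratios of Cat (1.11 to 1.36) and Oxr1 (-1.24 to -1.09) stayed past 2-fold under 8 alternatives of scaling, floor, probe set choice and gene value. Their strongest probe sets lie far above the floor and do not end in _s_at or _x_at. Changes of floor and the removal of such probe sets therefore could not move these ratios, and only scaling and averaging could. Prdx2 was at -0.81 with the mean of its probe sets, which leaves 1 member gene lower. Sod2 and Gpx4 changed sign under 1 alternative each, and the other members under none. Probe sets of the members at least 2-fold higher numbered 2 of 19 with median centring, beside 4.27% of all probe sets. They numbered 3 of 20 with the floor lowered to the 50th percentile, beside 5.07%, and 5 of 24 with no floor, beside 17.3%. Those lower numbered 4 of 24 with no floor, beside 19.5% of all probe sets. At 1.5-fold, 4 were higher and 4 lower, beside 11.7% and 13.2% of all probe sets. At 3-fold, 0 member probe sets, 0 member genes and 0 companion genes were called in either direction. With no floor, 9 of 91 companion genes were higher and 8 lower, beside 14.99% and 16.92% of all genes. At 1.5-fold, 12 of 75 companion genes were higher and 8 lower, beside 11.63% and 13.41% of all measured genes. With median centring, 1 companion gene was lower, beside 2.84% of all measured genes. The cause was not tested. Keeping only probe sets at a log2 signal of 10 or more, chosen after seeing the data, left 1 higher and 2 lower. No paired analysis was possible because each genotype has 1 array. No array was repeated, so spread between animals or arrays is unknown.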
